A study of Rattus norvegicus with 24 samples.

Results

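The levels of 9 genes that set the direction of glucose carbon through the liver were followed across the 24 liver libraries: Pck1, G6pc, Fbp1, Slc2a2, Gckr, Pfkfb1, Pfkl, Pklr and Mlxipl. They were chosen by name, and 10 of the 30957 gene rows carry these 9 names, because G6pc stands on a pair of rows. The libraries came from female Sprague-Dawley rats, 8 per group, with 1 library per rat. Age was 6 weeks when housing began and 14 weeks at sampling, and the rats were fasted overnight before the liver was taken. Control rats lived with 12 h of darkness per day and were gavaged daily with saline. Darkness rats spent 8 weeks without light, 24 h of every day dark, and received the same saline. DL.reuteri rats were kept in the same constant darkness for 8 weeks and received the bacterium L. reuteri by gavage at 100 mg per day. No group received L. reuteri under the normal light cycle, so its effect is seen here only in constant darkness. Values are FPKM, fragments relative to transcript length and to all mapped reads, so levels can be compared between genes, while the depth behind them is unknown.

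The liver can run the path between glucose and pyruvate in either direction. In the fed state it takes up and burns or stores glucose, and in the fasted state it makes glucose from lactate, glycerol and amino acids and releases it to the blood. A few one-way steps decide the direction, and each has an enzyme for glucose use and an opposing enzyme for glucose output. Insulin, glucagon, glucocorticoids and glucose itself act on these steps, partly through the amount of each mRNA. Pck1 makes phosphoenolpyruvate from oxaloacetate, the entry step of gluconeogenesis. Fbp1 removes a phosphate from fructose 1,6-bisphosphate, and G6pc is the catalytic subunit that frees glucose from glucose 6-phosphate. Slc2a2 encodes GLUT2, the glucose transporter of the hepatocyte membrane. Gckr is a regulatory protein that restrains the first step of glucose use. Pfkl is the liver subunit of phosphofructokinase and Pklr the pyruvate kinase of liver, both enzymes of glycolysis. Pfkfb1 is a bifunctional enzyme that makes and breaks down fructose 2,6-bisphosphate, the signal that activates phosphofructokinase and inhibits Fbp1. Mlxipl is ChREBP, a transcription factor that answers to glucose and drives Pklr and lipogenic genes.

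The promoters of 4 of these genes are shown because the genes carry the patterns described further on: Pck1 and G6pc varied together from rat to rat, Pfkfb1 had the smallest p of the members in darkness rats against both other groups, and Pklr is a textbook target of Mlxipl. Each is the 250 bases before a RefSeq start site of the rat assembly GRCr8, on the plus strand. Pck1 lies at chr3:182348322-182348571, G6pc at chr10:86807409-86807658, Pklr at chr2:176841014-176841263 and Pfkfb1 at chrX:22941926-22942175. Capitals mark matches to the motifs searched, on either strand.
Pck1: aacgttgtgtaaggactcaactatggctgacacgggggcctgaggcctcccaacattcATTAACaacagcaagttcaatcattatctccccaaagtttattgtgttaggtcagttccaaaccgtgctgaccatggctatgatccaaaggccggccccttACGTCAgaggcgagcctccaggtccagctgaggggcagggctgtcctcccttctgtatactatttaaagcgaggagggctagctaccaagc
G6pc: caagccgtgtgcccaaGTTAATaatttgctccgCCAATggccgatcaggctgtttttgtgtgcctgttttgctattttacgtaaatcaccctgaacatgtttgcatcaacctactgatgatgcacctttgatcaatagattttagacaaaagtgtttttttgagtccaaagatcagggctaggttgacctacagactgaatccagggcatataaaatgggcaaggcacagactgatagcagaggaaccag
Pklr: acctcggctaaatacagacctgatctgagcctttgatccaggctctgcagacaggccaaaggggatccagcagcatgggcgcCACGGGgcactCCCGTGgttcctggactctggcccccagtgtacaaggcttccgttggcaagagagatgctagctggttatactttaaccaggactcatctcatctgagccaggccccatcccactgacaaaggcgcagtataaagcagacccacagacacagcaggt
Pfkfb1: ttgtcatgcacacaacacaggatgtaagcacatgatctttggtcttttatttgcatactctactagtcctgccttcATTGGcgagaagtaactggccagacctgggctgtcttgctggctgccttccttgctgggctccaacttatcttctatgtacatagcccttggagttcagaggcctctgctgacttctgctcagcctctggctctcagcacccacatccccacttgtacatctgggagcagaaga

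In the Pck1 promoter the capitals are ACGTCA, the core of a cyclic AMP response element, at 91 to 86 bases before the start site, and ATTAAC, the reverse of GTTAAT, a partial HNF1 site, at 192 to 187 bases. The G6pc promoter also held GTTAAT, at 234 to 229 bases, followed by the CCAAT box at 217 to 213 bases. Of the 33469 rat promoters in the same RefSeq table, 6.95% held ACGTCA, 6.45% held GTTAAT and 34.0% held CCAAT within 250 bases on either strand. CCAAT was thus a common match, and the partial HNF1 site shared by Pck1 and G6pc a less common one. Whether it has a part in how Pck1 and G6pc varied together was not tested.

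In the Pklr promoter the capitals are CACGGG and its reverse complement CCCGTG with 5 bases between them, at 168 to 152 bases before the start site. This pair of arms is the layout of the carbohydrate response element to which ChREBP binds, known from the rat gene, and it was added to the search after the promoters had been read. Of the 33469 promoters, 1 held it in exactly these letters and spacing, that of Pklr. The letters and spacing were set with this promoter in view, so its own match was given in advance. A single arm on either strand stood in 8.05% of promoters. It is not capitalized where it stands alone, as in the Pck1 promoter. The Pfkfb1 promoter held CCAAT read on the opposite strand, at 174 to 170 bases. RefSeq begins both the Pklr and the Pfkfb1 gene upstream of the start sites used here, and the FPKM do not separate start sites.

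Among the promoters not printed, that of Fbp1 held 1 CCAAT box and that of Mlxipl held 2, from both of its listed start sites, and those of Slc2a2, Gckr and Pfkl held none of the motifs. The full E-box CACGTG and the forkhead core GTAAACA, present in 5.59% and 3.21% of all promoters, matched none of the 9 genes in this window. The matches did not overlap each other. A match describes letters only, and a missing match says only that these letters are not in the 250 bases.

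The labelled tissue was borne out by the hepatocyte markers, with Alb, the plasma protein albumin, at 8028 FPKM or more in every library. Libraries differed in the share of FPKM from the mitochondrial genome, from 12.5% to 59.99% in 23 libraries and 85.5% in DL.reuteri 3, where the mean log2(FPKM + 1) of hepatocyte markers was 8.99 against 11.5 or more elsewhere. The adipocyte markers averaged 4.04 for control 8 and 3.43 for DL.reuteri 2 on the same scale, against at most 1.61 in the others. Results are therefore also given without DL.reuteri 3, and without all 3 of these libraries where that changes them.

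The 9 genes covered more than 2 orders of magnitude in level. Ordered by the median FPKM over 24 libraries, Pck1 stood first at 1291 FPKM, followed by G6pc at 384, Fbp1 at 270, Gckr at 140, Mlxipl at 138, Pklr at 96.6, Slc2a2 at 72.1, Pfkl at 8.86 and Pfkfb1 at 6.87. Pck1 was above G6pc in 24 of 24 libraries and Slc2a2 above Pfkl in 24 of 24, so these steps in the order were larger than the spread between rats. The other neighbours crossed: the higher gene of a pair was above the lower one in 20 of 24 libraries for Fbp1 and Gckr, 18 for Mlxipl and Pklr, 17 for G6pc and Fbp1, 16 for Gckr and Mlxipl, 16 for Pklr and Slc2a2, and 15 for Pfkl and Pfkfb1. In these fasted rats the 3 enzymes of glucose output thus had the highest medians, and the mRNA of the phosphofructokinase subunit and of the bifunctional enzyme the lowest.

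**Figure D1:**
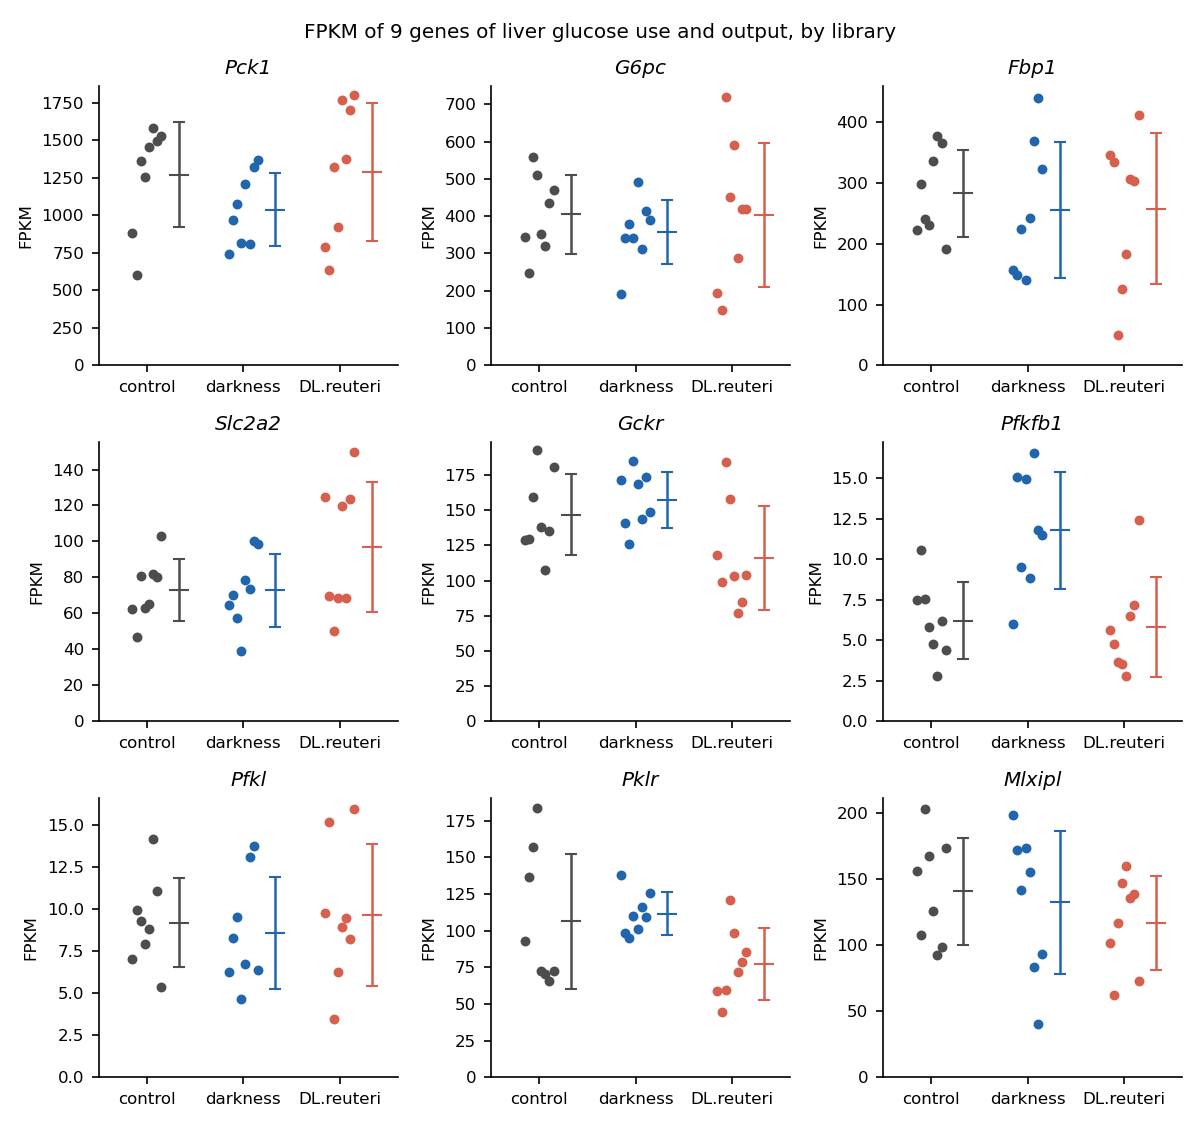
FPKM of the 9 genes in each library (points), with the group mean and SD (n = 8 per group) beside the points; the vertical axes start at 0 and differ between genes. Darkness rats reached 5.99 to 16.5 FPKM of Pfkfb1 against 2.79 to 10.6 in control rats, and DL.reuteri rats included the lowest Gckr and Pklr values, while the groups overlapped for all 9 genes.

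The first comparison asked what constant darkness did to these genes. Against control rats, 1 of the 9 genes, Pfkfb1, had an unadjusted p under 0.05, where 2.78% of the 12151 genes tested did so, 0.477% with higher and 2.30% with lower FPKM in darkness rats. After Benjamini-Hochberg adjustment over all genes in limma, 0 of 9 members were called, and the background was 0%. The same count of 0 calls came from a model per gene that carries the Ballgown library term, in which 1 of 9 members and 618 of 18512 genes had an unadjusted p under 0.05, 318 higher and 300 lower. Rescaling by median ratios gave 141 higher and 178 lower, so the balance of higher and lower genes depended on the scaling. For none of the 9 genes did the groups separate without overlap, which 0.0329% of all genes did.

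Against darkness rats, DL.reuteri rats differed at an unadjusted p under 0.05 in 3 of 9 members, Pfkfb1, Gckr and Pklr, all lower in DL.reuteri rats. Among all genes 16.8% met this threshold, 12.0% with higher and 4.89% with lower FPKM in DL.reuteri rats. The higher genes were thus 71.0% of those past it, and 49.8% after rescaling by median ratios, 38.4% with the Ballgown term and 85.3% after rescaling outside the mitochondrial genome. By adjusted p in limma 0 of 9 were called against a background of 0.0823%. Without DL.reuteri 3, 4 of 9 members had an unadjusted p under 0.05 (26.8% of all genes), and 2 of 9, Pfkfb1 and Gckr, had an adjusted p under 0.05 by limma, where 10.1% of all genes did. Leaving out this 1 library moved the genes called in all from 10 to 1219.

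Against control rats, DL.reuteri rats differed at an unadjusted p under 0.05 in 1 of 9 members, Gckr, which was lower, where 13.2% of all genes did, 6.43% with higher and 6.81% with lower FPKM in DL.reuteri rats. By adjusted p in limma 0 of 9 were called against 0.140% of all genes, and without DL.reuteri 3 the count was still 0 of 9, against 2.07%, with 2 of 9 at an unadjusted p under 0.05 against 19.3%. No member separated DL.reuteri rats from darkness rats or from control rats without overlap, which 0.123% and 0.263% of all genes did. The comparisons share groups, so they do not repeat each other independently.

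**Figure D2:**
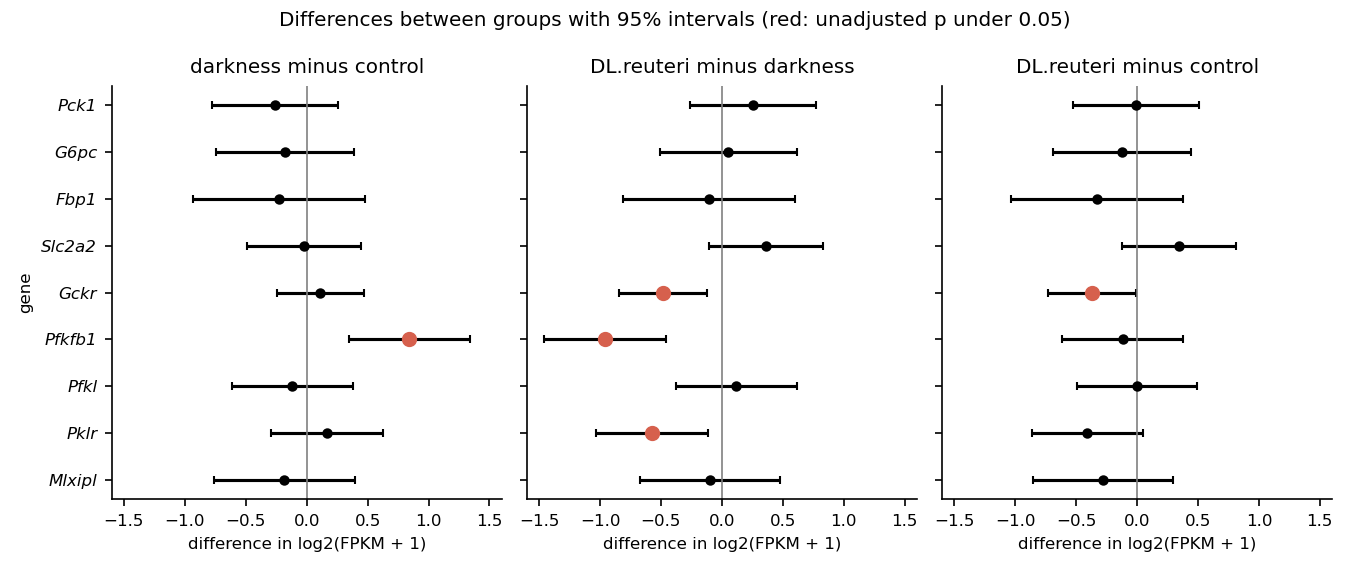
Difference between group means in log2(FPKM + 1) for each gene (points) with its 95% interval from limma (bars), in the 3 comparisons; red points have an unadjusted p under 0.05. Pfkfb1 stands at 0.84 in darkness minus control and at -0.96 in DL.reuteri minus darkness, and the intervals of Pck1, G6pc, Fbp1, Slc2a2, Pfkl and Mlxipl include 0 in all 3 comparisons.

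Pck1, the gluconeogenic enzyme of the cytosol, ranged in control rats from 603 to 1585 FPKM with a median of 1409. In darkness rats it ranged from 740 to 1371 with a median of 1023. In DL.reuteri rats it ranged from 635 to 1803 with a median of 1349. All 8 darkness rats lay below the control median, 4 of 8 control rats lay above every darkness rat, and the groups overlapped, with control 1 and control 2 among the low libraries. Darkness minus control was -0.26 on the log2 scale (95% interval -0.78 to 0.25), with p = 0.230 by an exact two-sided permutation test of 8 rats against 8 and an adjusted p of 0.9998 in limma. DL.reuteri minus darkness was 0.25 (-0.26 to 0.77, adjusted p = 0.662 in limma) and DL.reuteri minus control -0.01 (-0.53 to 0.51, adjusted p = 0.993 in limma). These intervals leave room for differences of about the size of the spread between rats. In bulk liver fewer cells of a type and less RNA per cell cannot be told apart.

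G6pc, at the last step of glucose release, had a median of 394 FPKM in control rats (248.6 to 559), 360 in darkness rats (192 to 492) and 420 in DL.reuteri rats (149 to 720). The lowest and the highest library of all 24 were both DL.reuteri rats, DL.reuteri 2 and DL.reuteri 3. The log2 differences were -0.18 for darkness minus control (-0.74 to 0.39), 0.05 for DL.reuteri minus darkness (-0.51 to 0.62) and -0.12 for DL.reuteri minus control (-0.69 to 0.44). The adjusted p in limma were 0.9998, 0.9496 and 0.890. The other row named G6pc, under another Ensembl identifier, was much lower, at 1.74 to 17.3 FPKM, and RefSeq lists the name of a neighbouring gene, Psme3, among the synonyms of G6pc1, so what this row counts is uncertain. Its log2 differences were -0.23, -0.03 and -0.27, all with an adjusted p of 0.695 or more in limma.

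Fbp1, the phosphatase that opposes phosphofructokinase, had a median of 269 FPKM in control rats (191 to 378), 233 in darkness rats (140 to 440) and 305 in DL.reuteri rats (50.4 to 412). The lowest value of all was that of DL.reuteri 3, and the ranges of the other libraries overlapped throughout. Darkness minus control was -0.22 (-0.93 to 0.48), DL.reuteri minus darkness -0.11 (-0.81 to 0.60) and DL.reuteri minus control -0.33 (-1.04 to 0.38) on the log2 scale, with adjusted p of 0.9998, 0.919 and 0.729 in limma. Without DL.reuteri 3 the last 2 differences were 0.19 and -0.03, so the sign of the former depended on that library among others. Fbp1 followed the mitochondrial share of a library closely, with r = -0.96 within groups over 24 libraries and -0.93 over 23, and the part of that share in these differences was not tested beyond the fit that includes it.

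Slc2a2, the glucose transporter, had a median of 72.7 FPKM in control rats (47.0 to 103), 72.1 in darkness rats (39.4 to 100.4) and 94.7 in DL.reuteri rats (50.5 to 150). The DL.reuteri rats divided into 4 libraries from 119 to 150 FPKM, above every darkness and every control rat, and 4 libraries from 50.5 to 70.0 FPKM. DL.reuteri minus darkness was 0.37 (-0.10 to 0.83, adjusted p = 0.446 in limma) and DL.reuteri minus control 0.35 (-0.12 to 0.81, adjusted p = 0.538 in limma). Darkness minus control was -0.02 (-0.49 to 0.45, adjusted p = 0.9998 in limma). Without DL.reuteri 3 the differences of DL.reuteri rats were 0.48 (adjusted p = 0.136 in limma, exact permutation p = 0.0566) and 0.47 (adjusted p = 0.216 in limma, exact permutation p = 0.0519). Without all 3 of the libraries set apart above they were 0.57 (adjusted p = 0.0925 in limma) and 0.62 (adjusted p = 0.151 in limma). Slc2a2 moved with the mean of the periportal hepatocyte markers, with r = 0.75 within groups over 24 libraries and 0.69 over 23, a description of libraries that share their scaling.

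Gckr, the regulatory protein at the first step of glucose use, had a median of 137 FPKM in control rats (108 to 193), 159 in darkness rats (126 to 185) and 103 in DL.reuteri rats (77.2 to 184). Of the 8 DL.reuteri rats 6 lay below every darkness rat and 5 lay below every control rat, while DL.reuteri 3 and DL.reuteri 4 lay within the darkness range and DL.reuteri 1, 3 and 4 above the lowest control rat. The mean was 116 ± 36.7 FPKM (SD, n = 8) in DL.reuteri rats, 157 ± 20.2 in darkness rats and 147 ± 28.7 in control rats. DL.reuteri minus darkness was -0.48 on the log2 scale (-0.84 to -0.12), with an unadjusted p of 0.0110 and an adjusted p of 0.164 in limma and p = 0.0126 by the exact permutation test. DL.reuteri minus control was -0.37 (-0.73 to -0.01), with an unadjusted p of 0.0461 and an adjusted p of 0.369 in limma and p = 0.0601 by the exact permutation test. Without DL.reuteri 3 these were -0.58 (adjusted p = 0.0154 in limma) and -0.47 (adjusted p = 0.0759 in limma). Gckr was thus lower in DL.reuteri rats than in darkness rats past the adjusted threshold only when that library was left out, alone or with control 8 and DL.reuteri 2, with array weights, which weight each library by its spread, or with the mitochondrial share in the model. Rescaled to the FPKM outside the mitochondrial genome, which raises DL.reuteri 3, the difference was -0.32 with an adjusted p of 0.508 in limma. Darkness minus control was 0.11 (-0.25 to 0.47, adjusted p = 0.9998 in limma). Markers of pericentral hepatocytes, the cells around the central vein, moved against Gckr, with r = -0.68 between Gckr and their mean within groups over 24 libraries and -0.49 over 23. This was not particular to them. The hepatocyte, Kupffer cell and periportal marker means had r = -0.62, -0.63 and -0.53 over 24 libraries. Over 23 libraries these were -0.37, -0.41 and -0.29. The adipocyte marker mean had r = 0.13 and 0.21. The pericentral mean of log2(FPKM + 1) ran from 4.05 to 4.64 for the control group, 3.75 to 4.55 for the darkness group and 3.40 to 5.14 for the DL.reuteri group. Of the 9 pericentral markers 8 were tested, and 2 of these, the factor Tbx3 and the Wnt target Axin2, were higher in DL.reuteri than in darkness rats at an unadjusted p under 0.05 (log2 0.88 and 0.56, adjusted p = 0.0551 and 0.0911 in limma). Among all genes 12.0% were higher at this threshold. By sign 5 of the 8 markers were higher, and their log2 differences ran from -0.29 to 0.88. In DL.reuteri minus control 7 of the 8 were higher by sign, with log2 differences from -0.69 to 0.95. There 2 were higher at an unadjusted p under 0.05, where 6.43% of all genes were. By adjusted p in limma 1 was called, where 0.140% of all genes were. Lgr5 was listed at 0 in some control and darkness libraries, and Glul, glutamine synthetase, had a median of 143 FPKM in DL.reuteri against 96.3 in darkness rats. The markers Cyp1a2 and Oat had lower medians in DL.reuteri than in darkness rats, at 456 against 499 and 145 against 149 FPKM. The part of these markers in the Gckr difference was not tested.

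Pfkfb1, the bifunctional enzyme, had the smallest p of the 9 genes in both comparisons with darkness rats. In control rats it ranged from 2.79 to 10.6 FPKM with a median of 6.03. In darkness rats it ranged from 5.99 to 16.5 with a median of 11.7. In DL.reuteri rats it ranged from 2.83 to 12.4 with a median of 5.22. Of the 8 darkness rats 5 lay above every control rat and 3 lay above every DL.reuteri rat, and 7 of 8 were above the control median. The exceptions were darkness 1, at 5.99 FPKM, and DL.reuteri 8, at 12.4 FPKM against 7.21 in the next DL.reuteri rat.

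On the log2 scale Pfkfb1 was 0.84 higher in darkness than in control rats (0.34 to 1.34), a ratio of mean FPKM of 1.90, with an unadjusted p of 0.00183 (rank 15 of 12151) and an adjusted p of 0.9998 in limma and p = 0.00326 by the exact permutation test. DL.reuteri minus darkness was -0.96 (-1.46 to -0.46), a ratio of means of 0.494, with an unadjusted p of 0.000523 (rank 98) and an adjusted p of 0.0634 in limma and p = 0.00373 by the exact permutation test. DL.reuteri minus control was -0.12 (-0.62 to 0.38, adjusted p = 0.879 in limma). Neither comparison with darkness rats passed the adjusted threshold. Without DL.reuteri 3, DL.reuteri minus darkness was -0.90 with an adjusted p of 0.0254 in limma, and without DL.reuteri 8 it was -1.12. The unadjusted p stayed under 0.05 in all 15 alternatives and in all 24 fits that left out 1 library, in both comparisons, with log2 differences from 0.70 to 0.96 for darkness minus control and from -1.12 to -0.74 for DL.reuteri minus darkness. Pfkfb1 had r = -0.27 with the mitochondrial share over 24 libraries and -0.18 over 23, and with that share in the model DL.reuteri minus darkness was -0.95 (adjusted p = 0.0182 in limma). Since the log2 scale adds 1 to the FPKM, it understates the change of a gene at this level.

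Pfkl, the phosphofructokinase subunit that the product of Pfkfb1 activates, had a median of 9.05 FPKM in control rats (5.396 to 14.1), 7.51 in darkness rats (4.65 to 13.8) and 9.20 in DL.reuteri rats (3.44 to 16.0). As for Fbp1, the lowest library was DL.reuteri 3. The log2 differences were -0.12 (-0.61 to 0.38), 0.12 (-0.38 to 0.61) and -0.00 (-0.50 to 0.49) in the order darkness minus control, DL.reuteri minus darkness and DL.reuteri minus control. The adjusted p in limma were 0.9998, 0.863 and 0.999. None of these differences was larger than the spread between rats.

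Pklr, the pyruvate kinase of liver, had a median of 82.7 FPKM in control rats (65.8 to 184), 110 in darkness rats (94.96 to 138) and 75.3 in DL.reuteri rats (44.8 to 121). Darkness rats were the narrow group, with an SD of 14.6 FPKM against 46.1 in control and 24.4 in DL.reuteri rats. Control rats divided by library number, with control 1 to 4 from 92.9 to 184 FPKM and control 5 to 8 from 65.8 to 72.6 FPKM. Thus 5 of 8 lay below every darkness rat and 2 of 8 above every one. The labels do not say what the numbers stand for, and an order or batch behind this split was not tested. Of the DL.reuteri rats 6 of 8 lay below every darkness rat. DL.reuteri minus darkness was -0.57 on the log2 scale (-1.03 to -0.12), with an unadjusted p of 0.0162 and an adjusted p of 0.187 in limma and p = 0.00404 by the exact permutation test. DL.reuteri minus control was -0.41 (-0.87 to 0.05), with an adjusted p of 0.445 in limma and p = 0.140 by the exact permutation test. Without DL.reuteri 3 these were -0.53 (adjusted p = 0.121 in limma) and -0.36 (adjusted p = 0.379 in limma). Darkness minus control was 0.17 (-0.29 to 0.62, adjusted p = 0.9998 in limma). Pklr passed the adjusted threshold under no alternative, and the lowest adjusted p of DL.reuteri minus darkness was 0.0752. The unadjusted p of that difference stayed under 0.05 in 13 of 15 alternatives. The exceptions were rescaling outside the mitochondrial genome (log2 -0.42, adjusted p = 0.338 in limma) and leaving out DL.reuteri 3, control 8 and DL.reuteri 2 (log2 -0.40, adjusted p = 0.245 in limma).

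Mlxipl, the factor that acts on Pklr, had a median of 141 FPKM in control rats (93.0 to 203), 149 in darkness rats (40.2 to 199) and 126 in DL.reuteri rats (62.6 to 160). Both the lowest and the second highest library of all 24 were darkness rats, darkness 7 and darkness 1. The log2 differences were -0.18 (-0.76 to 0.39), -0.10 (-0.67 to 0.48) and -0.28 (-0.86 to 0.30), with adjusted p of 0.9998, 0.908 and 0.718 in limma. Mlxipl was higher in libraries with a larger mitochondrial share, with r = 0.73 within groups over 24 libraries and 0.90 over 23.

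Opposing enzymes were also compared within each library, where a scaling shared by all genes largely cancels. It does so less for genes of a few FPKM, since 1 is added to each value. The difference in log2(FPKM + 1) of Pfkl minus Fbp1 was -4.80 ± 0.18 (SD, n = 8) for the control group, -4.70 ± 0.43 for the darkness group and -4.47 ± 0.52 for the DL.reuteri group. That of Pklr minus Pck1 was -3.61 ± 0.92, -3.18 ± 0.43 and -4.01 ± 0.52 in the same order. Within the control group it ran from -3.23 to -2.13 in control 1 to 4 and from -4.48 to -4.32 in control 5 to 8. The enzyme of glucose output was the higher one of both pairs in every library. Pfkfb1 minus Pfkl was -0.53 ± 0.67 for the control group, 0.43 ± 0.56 for the darkness group and -0.64 ± 0.55 for the DL.reuteri group. It ran from -0.20 to 1.497 under darkness, while no control rat was above 0.08 and no DL.reuteri rat above 0.06. Pfkfb1 was thus at about the level of Pfkl or above it in darkness rats and mostly below it in the other groups. The mitochondrial share need not cancel within a library. Over 24 libraries Pfkl had r = -0.88 with it within groups, and Pfkfb1 had -0.27. The highest darkness value of Pfkfb1 minus Pfkl was that of darkness 4, with a share of 59.99%. The lowest was that of darkness 7, with 12.5%. The part of the share in this difference was not tested. All differences within libraries are values with no test.

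**Figure D3:**
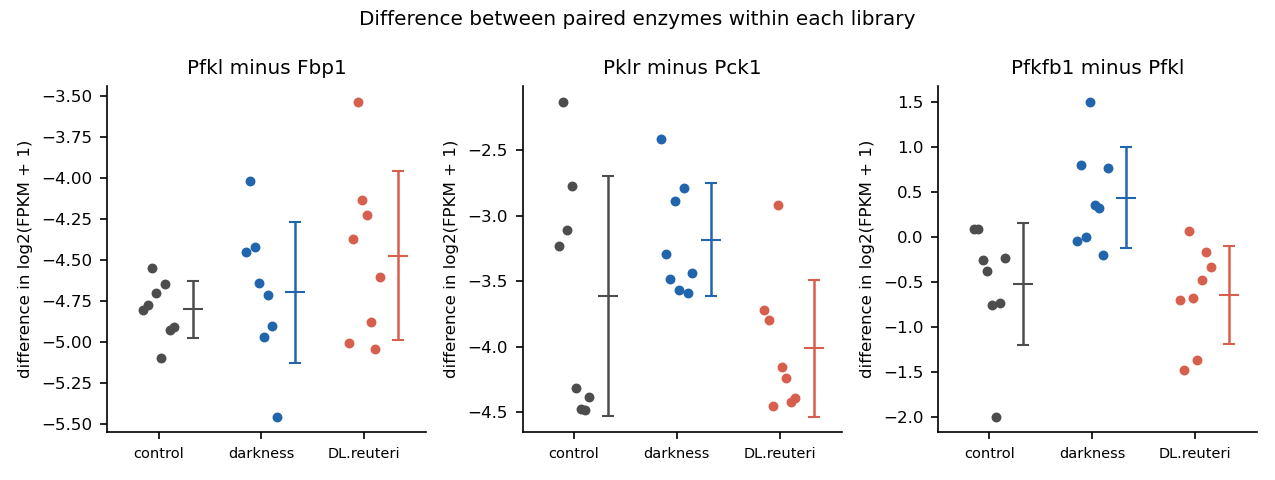
Difference in log2(FPKM + 1) between 2 opposing enzymes, or between Pfkfb1 and Pfkl, within each library (points), with the group mean and SD (n = 8 per group). Pfkfb1 minus Pfkl averages 0.43 in darkness rats against -0.53 and -0.64 in the other groups, and the other 2 differences lie below 0 in all 24 libraries.

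The members differed in how they varied from rat to rat. After centring on the group means, Pck1 and G6pc varied together, with r = 0.70 over 24 libraries and 0.74 without DL.reuteri 3, and Pck1 and Slc2a2 with 0.56 and 0.65. Rescaled to the FPKM outside the mitochondrial genome and without DL.reuteri 3, these were 0.79 and 0.65.

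A second set of relations moved with the mitochondrial share. Fbp1 and Pfkl, which act against each other, varied together with r = 0.84 over 24 libraries and 0.77 over 23, and 0.56 once rescaled. Both were lower where the share was larger, at r = -0.96 and -0.88, and Mlxipl ran against Fbp1 with r = -0.62 over 24 libraries and -0.83 over 23. Gckr and Pklr had r = 0.28 as deposited and 0.64 once rescaled over 23 libraries. Pfkfb1 stood apart from the others, with no r beyond 0.36 in size against any member over 24 libraries. All these values are descriptions over libraries that share one scaling to mapped reads.

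**Figure D4:**
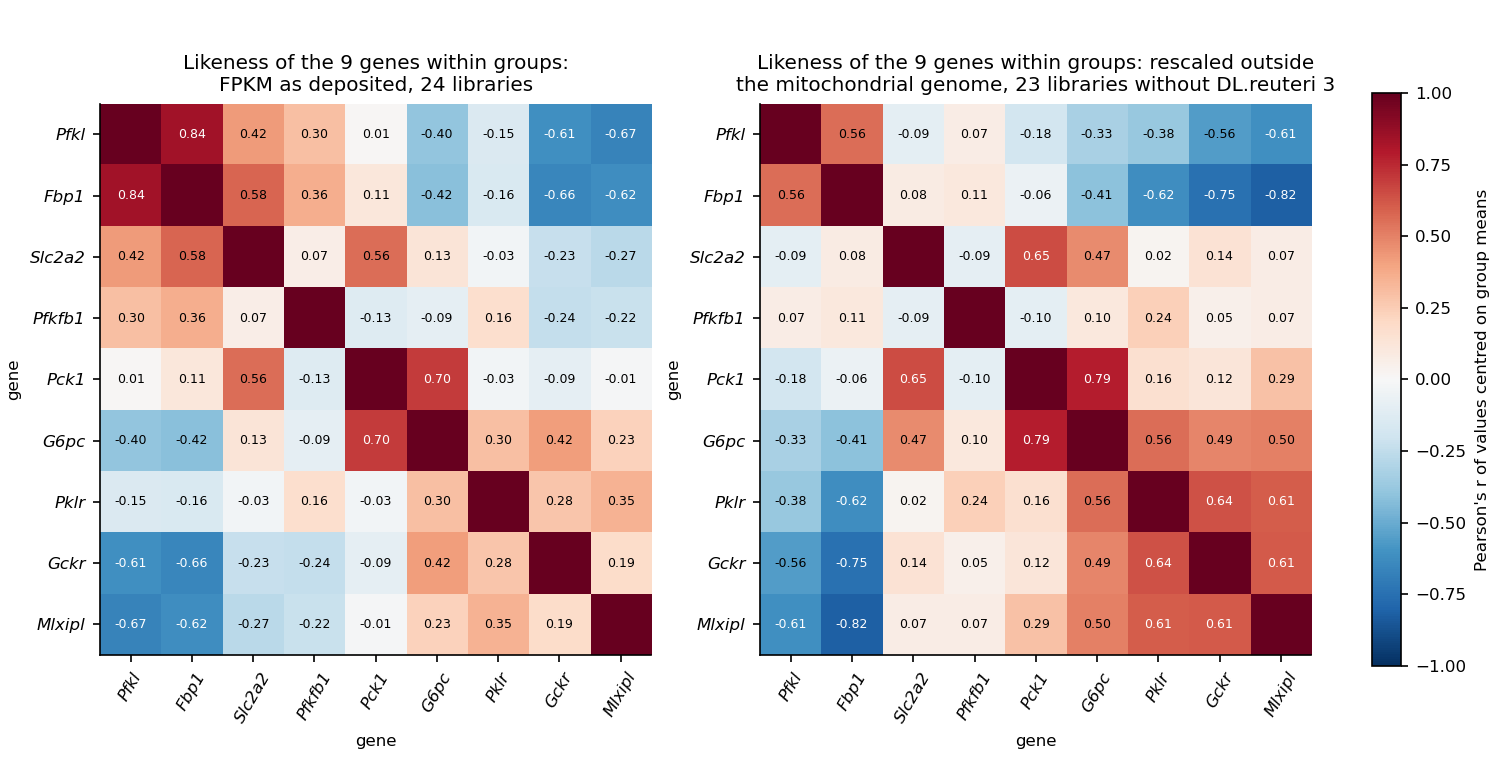
Pearson's r between each pair of the 9 genes, from log2(FPKM + 1) centred on group means, as deposited over 24 libraries (left) and rescaled outside the mitochondrial genome over 23 libraries (right); red is positive and blue negative. Pck1 and G6pc stand at 0.70 and 0.79, and Fbp1 and Mlxipl at -0.62 and -0.82.

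**Figure D5:**
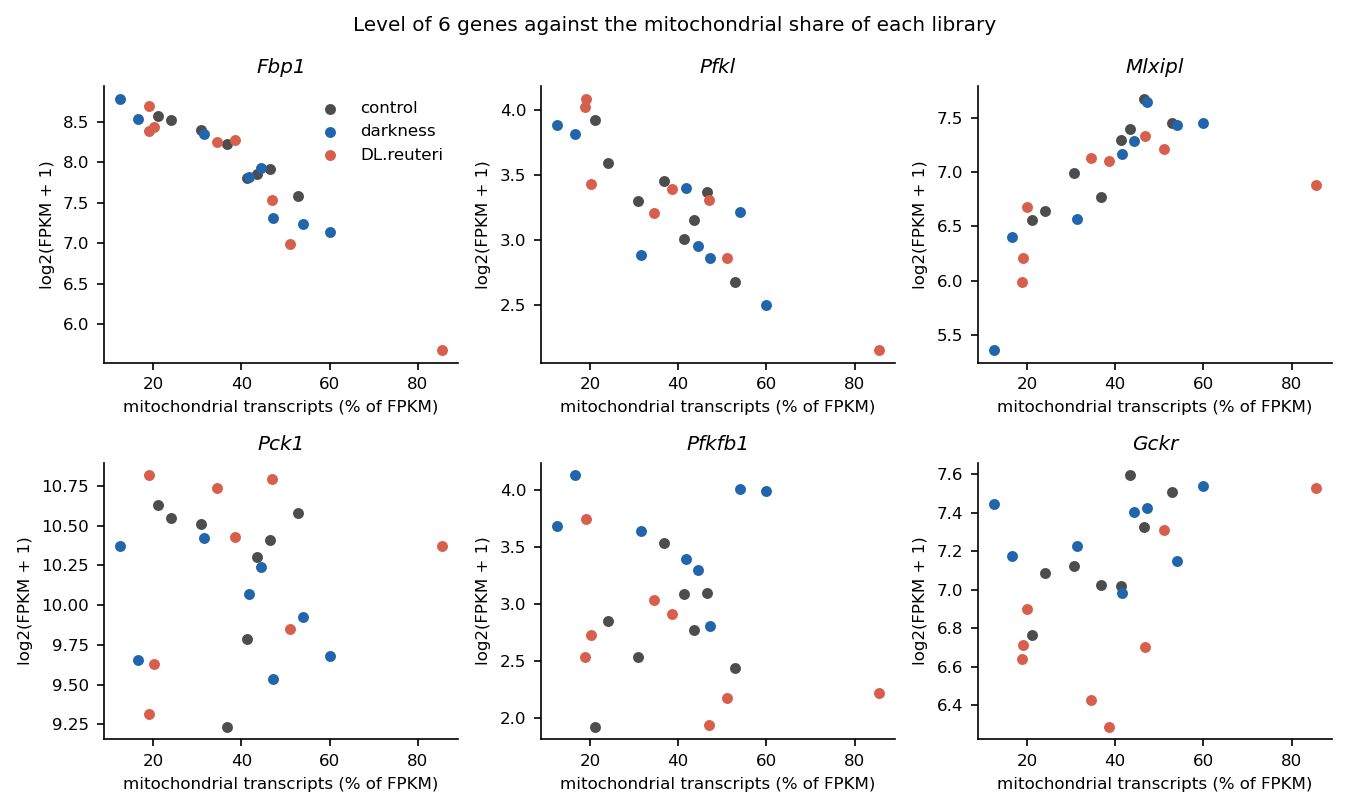
Log2(FPKM + 1) of 6 genes against the percentage of FPKM from the mitochondrial genome in each library (points, coloured by group). Fbp1 and Pfkl are lower and Mlxipl is higher along the axis up to 59.99%, Pck1, Pfkfb1 and Gckr scatter more widely, and the point at 85.5% is DL.reuteri 3.

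The genes most like each member were looked up among all genes tested, by r over 23 libraries after rescaling. For Pck1 they were Igfbp1, an insulin-repressed binding protein of insulin-like growth factors, at 0.87, the amino acid transporter Slc38a2 at 0.85 and Tgif1 at 0.82. For G6pc they were a row of the mitochondrial genome named AY172581.19 at 0.86, the kinase Csnk1g2 at 0.85 and Irf2bp2 at 0.85. For Slc2a2 they were Tsc22d3, a glucocorticoid-induced gene, at 0.88, Nudt4 at 0.83 and the urea cycle enzyme Arg1 at 0.80. All 9 of these genes stood at an r of 0.80 or more.

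For Gckr the nearest were Samd11 at 0.88, Eps8l2 at 0.88 and the choline kinase Chka at 0.87, and for Pklr Zbtb17 at 0.85, the pentose phosphate enzyme Rpia at 0.84 and AC095278.1 at 0.83. For Fbp1 they were the ribosomal protein gene Rpl5, Tmem59 and AC136661.1, each at 0.94, and for Pfkl the chaperonin subunits Cct5 at 0.88 and Cct8 at 0.85 with ST7 at 0.87. For Mlxipl they were Wdr59 at 0.98, Nisch at 0.97 and Pan3 at 0.97, and 12.2% of all genes had an r over 0.8 with it. Such a large share shows how many genes run with Mlxipl in these libraries. Pfkfb1 was again the exception, since its nearest genes Specc1, AC128212.1 and Fam53a reached only 0.66, 0.61 and 0.58.

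The wider pathway was read from lists of glucose genes, none of which held a gene called by adjusted p in limma in any comparison. Of 21 rows of glycolytic genes tested, 0 had an unadjusted p under 0.05 in darkness minus control, where 2.78% of all genes did. In DL.reuteri minus darkness 3 were lower, where 4.89% of all genes were, Pklr together with Gapdh, from 243 ± 49.0 to 164 ± 47.6 FPKM (SD, n = 8; log2 -0.61, adjusted p = 0.147 in limma), and Eno1, from 100.4 ± 21.2 to 77.9 ± 21.8 FPKM (log2 -0.42, adjusted p = 0.291 in limma). Gapdh oxidizes glyceraldehyde 3-phosphate and Eno1 is an enolase, enzymes that serve both directions of the path. The median log2 difference of the list was -0.16 against 0.07 over all genes tested. In DL.reuteri minus control Gapdh alone was lower, where 6.81% of all genes were, and the list had a median of -0.29 against 0.00.

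Of 18 rows of gluconeogenic genes tested, both G6pc rows included, 0 had an unadjusted p under 0.05 in darkness minus control, where 2.78% of all genes did. In each comparison with DL.reuteri rats 1 was higher and 1 lower. Among all genes 12.0% were higher and 4.89% lower against darkness rats, and 6.43% and 6.81% against control rats. The higher one was Gpt2, the alanine aminotransferase of mitochondria, at 13.6 ± 7.22 FPKM in DL.reuteri, 5.99 ± 1.96 in darkness and 6.24 ± 1.87 in control rats (SD, n = 8; log2 0.95 and 0.89, adjusted p = 0.0791 and 0.156 in limma). The lower one was Mdh2, the malate dehydrogenase of mitochondria, at 104 ± 47.4 FPKM against 154 ± 42.1 and 162 ± 36.5 (log2 -0.73 and -0.82, adjusted p = 0.235 and 0.279 in limma). Pck1, G6pc and Fbp1 were not among these. The medians of the list were -0.10, -0.10 and -0.18 in the 3 comparisons, against -0.07, 0.07 and 0.00 over all genes.

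Of 3 tested genes of fructose 2,6-bisphosphate turnover, Pfkfb1 was the one with an unadjusted p under 0.05, in both comparisons with darkness rats. Among all genes 0.477% were higher in darkness than in control rats, and 4.89% were lower in DL.reuteri than in darkness rats. Of 10 genes of pyruvate dehydrogenase, its kinases and pyruvate entry, 0 had an unadjusted p under 0.05 in any comparison. Over all genes the shares were 2.78% in darkness minus control, 16.8% in DL.reuteri minus darkness and 13.2% in DL.reuteri minus control. Of 6 genes of fructose and triose use, Khk, the first enzyme of fructose use, was lower in DL.reuteri rats, at 147 ± 20.7 FPKM against 212 ± 74.8 in darkness and 200.1 ± 19.2 in control rats (SD, n = 8; log2 -0.47 and -0.45, adjusted p = 0.155 and 0.266 in limma). Tkfc, a kinase of trioses, was lower against control rats as well, at 91.6 ± 28.2 against 121 ± 22.9 FPKM (log2 -0.44, adjusted p = 0.357 in limma). In DL.reuteri minus darkness 1 of 6 rows of fructose and triose use was lower at an unadjusted p under 0.05. Of the glycolytic rows 3 of 21 were lower, where 4.89% of all genes were. The gluconeogenic gene Mdh2 was lower there too, and none of these genes passed the adjusted threshold. Against control rats 2 of 6 rows of fructose and triose use were lower, where 6.81% of all genes were.

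Of 15 genes of glycogen, 3 were higher in DL.reuteri than in darkness rats at an unadjusted p under 0.05, where 12.0% of all genes were, among them the phosphorylase kinase subunits Phkb, at 4.60 against 2.94 FPKM (log2 0.53, adjusted p = 0.0878 in limma), and Phka2, at 0.863 against 0.417 FPKM (log2 0.39, adjusted p = 0.183 in limma). Against control rats 1 was lower, where 6.81% of all genes were, the phosphoglucomutase family gene Pgm2, at 2.06 against 2.98 FPKM (log2 -0.40, adjusted p = 0.177 in limma). Of 7 transporters 1 was higher in DL.reuteri than in darkness rats, where 12.0% of all genes were. It was Slc2a9, a urate transporter of the glucose transporter family, at 5.09 against 3.996 FPKM (log2 0.28, adjusted p = 0.198 in limma).

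Among 32 rows of regulators, 5 were lower in darkness than in control rats at an unadjusted p under 0.05, and 0 were higher, where 2.30% and 0.477% of all genes were. The smallest p were those of the insulin receptor substrate Irs1 (log2 -0.50), the forkhead factor Foxo3 (-0.31), Klf15, a factor of amino acid use in fasting (-0.56), and the hepatocyte factor Onecut1 (-1.02), each with an adjusted p of 0.9998 in limma. In DL.reuteri minus darkness 7 were higher and 2 lower, where 12.0% and 4.89% of all genes were, led by the hepatocyte factor Hnf4a, at 121 ± 28.0 against 79.7 ± 16.2 FPKM (SD, n = 8; log2 0.59, adjusted p = 0.0816 in limma). Onecut1 (log2 1.66), Irs1 (0.66) and the lower of the pair of rows named Nr3c1, the glucocorticoid receptor (0.79), followed, with adjusted p of 0.0830, 0.0887 and 0.128 in limma. The other Nr3c1 row, at a higher level, was not among the 7 rows that were higher. The median over the list was 0.12 against 0.07 over all genes.

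In DL.reuteri minus control 3 regulators were higher and 3 lower, where 6.43% and 6.81% of all genes were. Hnf4a was higher, at 121 against 82.3 FPKM (log2 0.53, adjusted p = 0.169 in limma), as was the lower Nr3c1 row (log2 0.61, adjusted p = 0.309 in limma). The other Nr3c1 row was again not among the higher ones. The insulin receptor substrate Irs2 was lower, at 7.94 ± 5.62 against 19.5 ± 11.8 FPKM (SD, n = 8; log2 -1.10, adjusted p = 0.326 in limma), as was the factor Cebpb (log2 -0.75, adjusted p = 0.352 in limma). No gene named here from the lists changed sign under any alternative in the comparison it was named for. They were named for a small p in that same comparison, so a stable sign was close to given in advance. In darkness minus control the unadjusted p stayed under 0.05 in 8 of 15 alternatives for Onecut1, 10 for Foxo3 and 15 for Irs1. In DL.reuteri minus control it did so in 9 of 15 for Cebpb, 10 for Irs2 and 15 for Hnf4a.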

How the data were processed

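Liver RNA of 24 rats was sequenced, 8 libraries per group. The authors deposited FPKM per gene, for which Seqtk trimmed the reads, HISAT2 2.0.4 aligned them to the assembly Rnor 6.0 and StringTie 1.3.0 estimated gene levels, and no further scaling between libraries is given in the sources used here. The table has 30958 rows, of which 1 repeated identifier was left out. No counts are given, so the depth is unknown and the precision is that of 8 rats per group. Several rats shared a cage and the labels name no cage, so the rats were treated as independent.

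The group comparisons were made in limma 3.58.1 (R 4.3.3) on log2(FPKM + 1). A single model held the 3 groups without covariates, and the variance prior followed a trend. Genes entered if 8 or more libraries reached 0.5 FPKM, which left 12151, and the Benjamini-Hochberg adjustment ran over all of them. Exact two-sided permutation tests (scipy 1.17.1) of 8 rats against 8, 27 for the 9 members and 3 comparisons, were added after the data had been seen and are not adjusted. All 10 rows of the 9 members passed this filter. The members and gene lists were chosen with earlier results of these data known. Other genes are named by rule: up to 4 per list and comparison with the smallest unadjusted p under 0.05, and the 3 most alike to each member. Some genes that the rule names are not reported here. Likeness is Pearson's r of values centred on group means. For darkness minus control the model was tested on simulated data of 12151 genes, where it called 69 of 100 genes given a log2 change of 1, 99 of 100 given a change of 2, and 7 with none. Changes were given only to genes with a mean log2(FPKM + 1) above 2. Each value was drawn independently, without deviations shared by the genes of a library, so these counts do not carry over to the real libraries.

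The alternatives were pseudocounts of 0.1 and 0.01, no filter or a filter at 1 FPKM, rescaling to the 75th percentile, by median ratios or to the FPKM outside the mitochondrial genome (37 rows), fits of only the groups compared, the library term of Ballgown (the tool of the authors), weights per library, a block for the replicate number, covariates for adipocyte markers or mitochondrial share, and fits without libraries. Promoter sequences are those of RefSeq for GRCr8, another build than that of the FPKM, and all 9 members matched by symbol, G6pc as G6pc1. Figures were drawn with Python 3.11.15, pandas 2.3.3 and matplotlib 3.10.9.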

Additional observations from a re-analysis of the deposited data

Results flagged for a closer look

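Of the 30 combinations of 10 rows and 3 groups, 1 held a library far from the others of its group on the log2 scale: the second G6pc row in DL.reuteri 3, at 1.74 FPKM against 8.32 in the next lowest DL.reuteri rat, a gap of 0.645 of the range of the group on the log2(FPKM + 1) scale, past the 95% limit of Dixon for 8 values. On the FPKM scale itself this gap was 0.424 and not past the limit, while Pfkfb1 in DL.reuteri 8, at 12.4 FPKM against 7.21 in the next DL.reuteri rat, was past it with a gap of 0.543. About 1 in 20 groups passes this limit by chance. The first G6pc row was the highest of all 24 libraries in the same rat, at 720 FPKM. DL.reuteri 3 is the library with 85.5% mitochondrial transcripts, whose part in these values was not tested.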

How the results depend on the processing

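No member reached an adjusted p under 0.05 with the settings used for the report. In DL.reuteri minus darkness Pfkfb1 did so when FPKM were rescaled to the 75th percentile (adjusted p = 0.0196 in limma), by median ratios (0.0170) or outside the mitochondrial genome (0.0411), with the Ballgown term (0.0344), with array weights (0.0343), with the mitochondrial covariate (0.0182) and without DL.reuteri 3, control 8 and DL.reuteri 2 (0.0485), and its adjusted p ranged from 0.0170 to 0.158 over 15 alternatives. Gckr did so with array weights (0.00329), the mitochondrial covariate (0.0261) and without those 3 libraries (0.0274), and with array weights also in DL.reuteri minus control (0.0148).

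Rescaling outside the mitochondrial genome moved the median log2 difference of all genes to 0.17 in DL.reuteri minus darkness and 0.14 in DL.reuteri minus control, and array weights moved the former to 0.17. Genes higher in DL.reuteri than in darkness rats made up 71.0% of those with an unadjusted p under 0.05, and 55.5%, 49.8% and 85.3% after rescaling to the 75th percentile, by median ratios and outside the mitochondrial genome, 38.4% with the Ballgown term, 86.1% with array weights and 85.6% without DL.reuteri 3, control 8 and DL.reuteri 2. Against control rats the share moved from 48.6% to 78.4% outside the mitochondrial genome, 74.5% with array weights and 71.5% without the 3 libraries. For darkness minus control it moved from 17.2% to 32.0%, 44.2% and 51.5% at the 75th percentile, by median ratios and with the Ballgown term.

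The genes called in darkness minus control were 0, and 1 when rescaled outside the mitochondrial genome, 1 with array weights and 2 with the mitochondrial covariate. In DL.reuteri minus darkness 10 were called, against 4 with a pseudocount of 0.1, 4 with 0.01, 4 with no filter, 395, 460 and 1008 under the 3 rescalings, 3 in a fit of only the groups compared, 768 with the Ballgown term, 1987 with array weights, 0 with the adipocyte covariate (1959 at an unadjusted p under 0.05), 1187 with the mitochondrial covariate, 1 without control 8 and DL.reuteri 2, and 919 without these and DL.reuteri 3. In DL.reuteri minus control 17 were called, against 10 with a pseudocount of 0.01, 3 with no filter, 167, 152 and 263 under the rescalings, 1 with only the groups compared, 341 with the Ballgown term, 1045 with array weights, 509 with the mitochondrial covariate, 0 without control 8 and DL.reuteri 2 (1511 at an unadjusted p under 0.05) and 39 without all 3. Leaving out each library gave 0 to 1219 and 0 to 251 calls, both highest without DL.reuteri 3. The members at an unadjusted p under 0.05 in DL.reuteri minus control were 1, and 0 under the first 2 rescalings, with only the groups compared, with the adipocyte covariate and without control 8 and DL.reuteri 2, 2 with array weights, the mitochondrial covariate and without all 3 libraries, and 0 to 2 when each library was left out.

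The replicate number as a block gave 3 calls in DL.reuteri minus darkness and 9 in DL.reuteri minus control and changed no other call. Deviations of libraries of the same number had a median r of 0.15, 0.12 and -0.01 in the 3 comparisons, from -0.39 to 0.60. Between libraries of different numbers the medians were -0.05, 0.001 and 0.04. At most 2 of 8 correlated best with their own number. With 8 libraries per group these values cannot decide whether the numbers pair the rats.

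Of the members, 33 log2 differences changed sign under an alternative, all from differences under 0.23 in size. In darkness minus control Slc2a2 became 0.036, 0.069 and 0.012 under the 3 rescalings, 0.063 with the Ballgown term, 0.048 with array weights, 0.0011 with the adipocyte covariate, 0.056 without control 8 and DL.reuteri 2 and 0.056 without all 3. With the Ballgown term Fbp1 became 0.024, Gckr -0.0099 and Pfkl 0.033, and with array weights Mlxipl 0.060. In DL.reuteri minus darkness G6pc became -0.022 by median ratios, Pfkl -0.063 with the Ballgown term, Fbp1 0.051 outside the mitochondrial genome, 0.30 with array weights and 0.14 without the 3 libraries, and Mlxipl 0.059 outside the mitochondrial genome, 0.020 without control 8 and DL.reuteri 2 and 0.030 without the 3 libraries. In DL.reuteri minus control Pck1 became 0.0012, 0.0052 and 0.18 under the rescalings, 0.22 with array weights, 0.17 without control 8 and DL.reuteri 2 and 0.17 without all 3, G6pc 0.066 outside the mitochondrial genome and 0.093 without control 8 and DL.reuteri 2, Pfkfb1 0.039 outside the mitochondrial genome, and Pfkl 0.0036 by median ratios, 0.16 outside the mitochondrial genome, 0.071 with array weights and 0.055 with the mitochondrial covariate. Leaving out each library gave ranges that cross 0 for Slc2a2 (-0.10 to 0.098) and Mlxipl (-0.29 to 0.038) in darkness minus control, for Fbp1 (-0.23 to 0.19), G6pc (-0.089 to 0.23) and Mlxipl (-0.32 to 0.020) in DL.reuteri minus darkness, and for Pck1 (-0.15 to 0.12), G6pc (-0.27 to 0.056) and Pfkl (-0.11 to 0.16) in DL.reuteri minus control. The causes were not tested.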
